A study of Mus musculus with 8 samples.

Results

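The 29 genes described here encode proteins of the small subunit of the cytosolic ribosome, and their transcripts were followed in mouse embryonic stem cells (mESCs) in which the spliceosome GTPase gene Eftud2 was targeted by shRNA. The genes were taken from a named list and matched by Ensembl identifier to the protein-coding copy in the count table, where all 29 were found among 55385 genes. The list does not cover every protein of the subunit. All 29 passed the filter on low counts, which 17445 genes passed in all, with between 333 and 104178 counts per gene and library.

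The cells were R1 mESCs, an established male line labelled wild type, grown without feeder cells in N2B27 medium with 2i and Lif on plates coated with poly-L-ornithine and laminin. All groups received lentivirus for 2 days followed by 3 days of puromycin. Cells with shRNA1, which targets the 3′ UTR of Eftud2, gave 3 libraries, cells with shRNA2, which targets its coding sequence, gave 3, and cells with the non-targeting nt-shRNA gave 2. The labels call the libraries biological replicates of 1 line, and the p-values measure the spread between them.

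Each small subunit carries 1 ribosomal RNA and a fixed set of proteins. It binds the mRNA and the initiator tRNA, scans to the start codon and holds the decoding center, where codon and anticodon are matched. Transcripts of ribosomal proteins are among the most abundant in dividing cells, and most begin with a C followed by an uninterrupted run of pyrimidines, the 5′ terminal oligopyrimidine (TOP) tract, through which their translation is coupled to growth signalling. Free ribosomal proteins, several of the small subunit among them, can bind Mdm2, the ubiquitin ligase of p53, and human RPS27L is a known p53 target gene.

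The start regions of 7 of these genes are shown. They include the transcripts with the largest decreases (Fau, Rps18), the paralogs Rps27 and Rps27l and the kinase substrate Rps6. The others are Rps10, whose counted part moved furthest in the other direction, and Rps3, which fell without a long pyrimidine run at the annotated start. Each line gives the transcribed strand from 10 bases before the first transcribed base to 20 bases from it onward in RefSeq, build GRCm38.p6, and capitals mark the longest run of C and T.
Fau, chr19:6057937-6057966, plus strand: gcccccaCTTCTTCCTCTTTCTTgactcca
Rps18, chr17:33955646-33955675, minus strand: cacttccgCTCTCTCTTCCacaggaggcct
Rps6, chr4:86857348-86857377, minus strand: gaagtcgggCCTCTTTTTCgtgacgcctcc
Rps27, chr3:90213629-90213658, minus strand: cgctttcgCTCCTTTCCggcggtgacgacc
Rps27l, chr9:66946076-66946105, plus strand: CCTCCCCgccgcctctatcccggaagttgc
Rps10, chr17:27635225-27635254, minus strand: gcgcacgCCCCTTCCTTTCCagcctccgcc
Rps3, chr7:99483690-99483719, minus strand: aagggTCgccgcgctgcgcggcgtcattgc

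The RefSeq table gave a start for 25 of the 29 genes, 30 starts in all. Rps14, Rps20, Rps27a and Rps29 were not matched. A C followed by at least 5 further C or T, that is 6 letters, stood on the transcribed strand of this window in 17 of the 30 starts and in 16 of the 25 genes. Among all 32851 starts in the table, 22.0% held such a run on the transcribed strand and 25.2% on the opposite strand, on which 3 of the 30 starts of these genes held it. The longest run had a median of 6 letters in these genes and of 4 over all starts. The 30 genomic bases after each window stood unbroken near the start of a GENCODE M21 transcript of the gene for 26 of the 30 starts, and not for a start of Rps6, Rps15, Rps21 and Rps26. The window of Rps15 lies upstream of its GENCODE gene. The letters are a description of these windows, and the annotated starts are not those measured in these cells.

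Libraries held 19569525 to 29871048 counts, and TMM factors lay between 0.935 and 1.036. The 2 nt-shRNA libraries were the deepest, at 28548237 and 29871048 counts, against 19569525 to 27501491 with the hairpins. Depth thus went with group, and its part in the results was not tested. Eftud2 itself was at 262 and 256 CPM (counts per 1e+06, scaled by TMM) with nt-shRNA, at 232, 229 and 225 with shRNA1, and at 198, 202 and 235 with shRNA2, so every library of either hairpin lay below both nt-shRNA libraries. Its log2 fold change was -0.18 with shRNA1 (edgeR adjusted p = 0.0514) and -0.29 with shRNA2 (adjusted p = 0.00122). Of 8 embryonic stem cell markers, 4 were higher and 1 was lower with shRNA1, and 6 were higher and 1 was lower with shRNA2. Klf4 and Nanog were among the higher ones (log2 fold changes 1.32 and 0.76 with shRNA2). The lower one was Pou5f1 with either hairpin (log2 fold changes -0.35 with shRNA1 and -0.29 with shRNA2). Of all tested genes, 13.8% were higher and 17.1% were lower with shRNA1, and 27.2% and 28.7% with shRNA2. The summed level of the 8 embryonic stem cell markers was 4686 to 4716 CPM with nt-shRNA, 5267 to 5473 with shRNA1 and 6213 to 6307 with shRNA2. The summed level of 5 fibroblast markers was 21.1 to 23.1 CPM with nt-shRNA, 22.3 to 25.03 with shRNA1 and 15.4 to 19.2 with shRNA2, the last below both controls. Col1a2 was higher with shRNA1 and with shRNA2 (log2 fold changes 1.27 and 1.66, from 0.429 CPM with nt-shRNA), Pdgfrb was lower with shRNA2 (-0.74), and Col3a1 had 2 counts over all libraries and was not tested. The summed level of 4 primitive endoderm markers was 19.8 to 20.2 CPM with nt-shRNA, 18.5 to 22.0 with shRNA1 and 14.1 to 17.0 with shRNA2, again the last below both controls. Gata6 was lower with shRNA2 than with nt-shRNA (-0.75), the 3 tested markers Gata4, Gata6 and Sox17 were lower with shRNA2 than with shRNA1, and Foxa2, with 19 counts, was not tested. The part of these markers in the results that follow was not tested.

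In control cells, the small subunit transcripts were among the most abundant in the library. Together they took 3.80% ± 0.0375 of all counts with nt-shRNA (SD, n = 2). Per exon length, taken over all annotated exons of a gene whether or not the cells use them, 27 of the 29 lay in the top 1% of the tested genes and 28 in the top 5%, with a median of 671.5 RPKM against 3.74 RPKM over all tested genes. Rps15, a head protein whose tail reaches into the decoding center, was highest on this scale at 2758 and 2649 RPKM, followed by Rps2, which lines the mRNA entry channel, at 2134 and 1915. Rps23, a protein of the decoding center, and Rps4x, the X-linked copy of eS4, followed at 1305 and 1238 and at 1231 and 1218 RPKM. The ranges of these 4 genes did not overlap, although those of Rps23 and Rps4x were only just apart with 2 libraries each. Near the lower end, Rps24, Rps27l and Rps19 had overlapping ranges, at 282 to 296, 273 to 293 and 275 to 287 RPKM. The order rests on the annotated length, which is 630 bases for Rps15, the shortest of the 29, and 6256 bases for Rps24, while their coding bases number 435 and 402. Without regard to length, Rps24 had 1806 CPM and Rps15 had 1703 CPM with nt-shRNA. Rps2 (3705 CPM), Rpsa (2909 CPM) and Rps3 (2501 CPM) had the highest means. Rps18 followed at 2483 CPM, and its libraries overlapped those of Rps3.

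Rps10 was the exception in level. It stood at 8.16 and 6.06 RPKM with nt-shRNA, 380-fold below Rps15. Of its 569 annotated coding bases, 456 (80.1%) also belong to an annotated readthrough gene, RPS10-NUDT3, which had 0 counts in the table. The counting left out fragments that touch 2 genes, so the values of Rps10 come from its remaining exon bases and give neither the level nor, with certainty, the direction of change of its coding transcript. The overlap was read from GENCODE M21, and the counting used M24. No other of these genes shares coding bases with another annotated gene, although 11 share some exon bases.

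**Figure D1:**
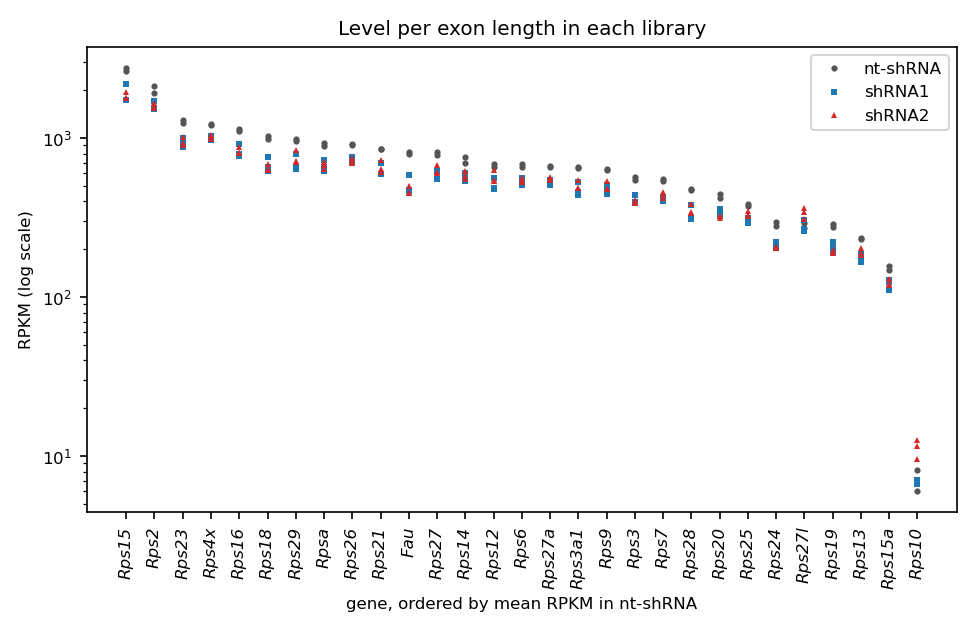
Level per exon length (RPKM, log axis) of the 29 genes in each of the 8 libraries, ordered by the mean of the 2 nt-shRNA libraries. Circles are nt-shRNA, squares shRNA1 and triangles shRNA2; 28 genes lie above 100 RPKM in every library and Rps10 lies lowest throughout.

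Small subunit transcripts were lower with shRNA1 than with nt-shRNA almost throughout. Of the 29 genes, 27 were lower and 0 were higher in edgeR's quasi-likelihood test at an adjusted p under 0.05, where 17.1% of all tested genes were lower and 13.8% were higher. The 27 genes stood at 0.635 to 0.823 times the nt-shRNA level, with adjusted p between 8.84e-06 and 0.00141. The median log2 fold change of the 29 genes was -0.42, against -0.01 over all tested genes. The libraries of the 2 groups did not overlap for 27 genes, where 56.8% of all tested genes had no overlap. As a share of the library, the 29 genes took 3.09% ± 0.182 (SD, n = 3).

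With shRNA2, most genes of the small subunit were lower as well, and a pair of them were higher. Compared with nt-shRNA, 27 genes were lower and 2, Rps27l and the counted part of Rps10, were higher, where 28.7% of all tested genes were lower and 27.2% were higher. The 27 genes stood at 0.581 to 0.880 times the nt-shRNA level, with adjusted p between 1.85e-07 and 0.0159. The median over the 29 genes was -0.35, against 0.00 over all tested genes, and their share of the library was 3.09% ± 0.108 (SD, n = 3). The groups did not overlap for any of the 29 genes, where 71.4% of all tested genes had no overlap. Both comparisons use the same 2 nt-shRNA libraries and are therefore not independent of each other.

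Scaled by library size alone, without TMM, the median of all tested genes moved to 0.11 with shRNA1 and 0.09 with shRNA2, and the medians of the small subunit genes to -0.31 and -0.26, with 27 and 25 genes lower. The values are relative to the other poly(A) RNA in a library, and fewer cells of a type and less of these RNAs per cell cannot be told apart in bulk RNA.

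**Figure D2:**
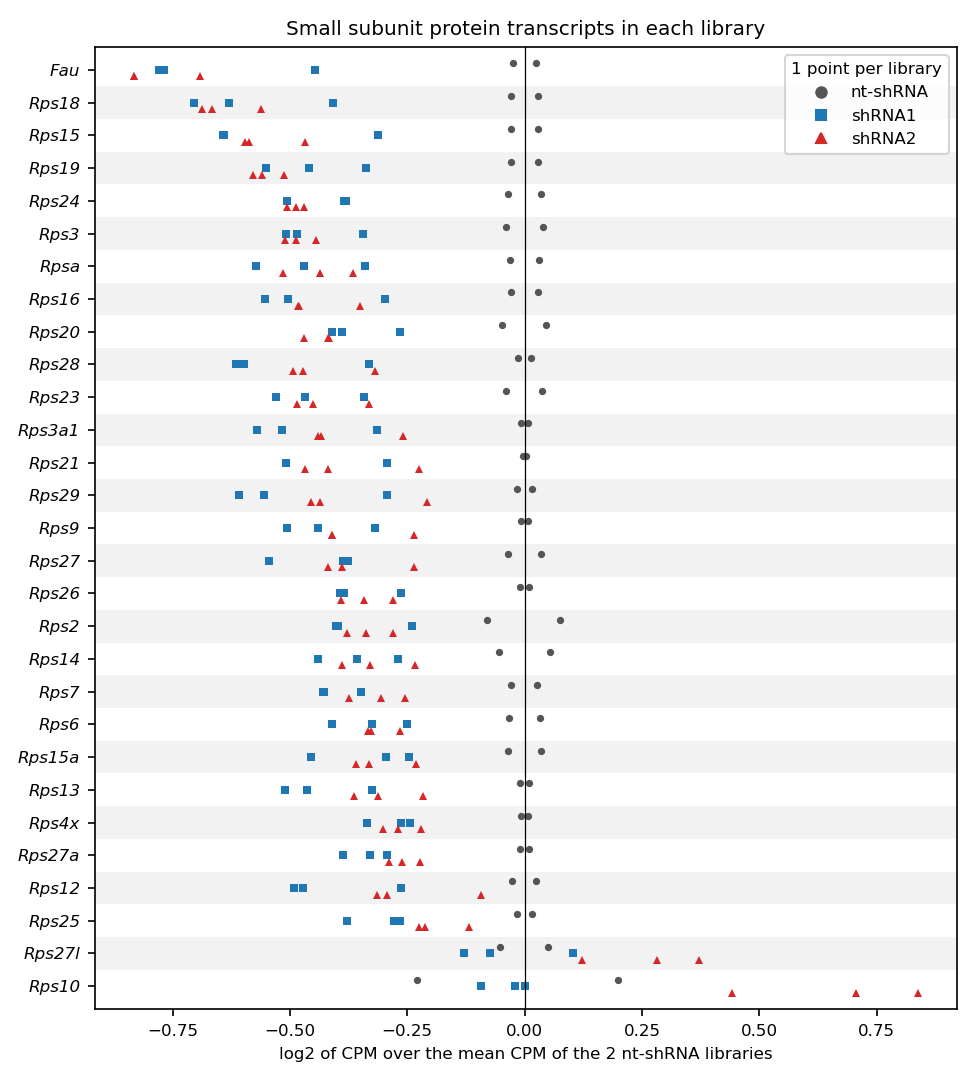
Level of each gene in each library as log2 of its CPM over the mean CPM of the 2 nt-shRNA libraries, ordered by the fold change with shRNA2, with 1 point per library. For 27 genes every point of either hairpin lies to the left of both nt-shRNA points, and for Rps10 and Rps27l the shRNA2 points lie to the right.

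Fau showed the largest decrease with either hairpin. It encodes a ubiquitin-like domain fused to eS30, a protein near the decoding center, and the fusion is cleaved to release the ribosomal protein. Fau stood at 786 and 759 CPM with nt-shRNA, at 450.2, 454 and 567 with shRNA1, and at 434, 479 and 434 with shRNA2. Its highest knockdown library thus lay well under its lower control library. The log2 fold change was -0.66 ± 0.08 (SE) with shRNA1 (adjusted p = 8.84e-06) and -0.78 ± 0.08 with shRNA2 (adjusted p = 1.85e-07).

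Rps18, Rps15 and Rps19, which sit in the head of the subunit, had the next lowest values with shRNA2. Rps18, which contacts the large subunit across the head, was at 2531 and 2435 CPM with nt-shRNA, 1605, 1524 and 1871 with shRNA1, and 1543, 1683 and 1566 with shRNA2. Rps15 was at 1737 and 1669 CPM with nt-shRNA, 1091, 1093 and 1372 with shRNA1, and 1127, 1231 and 1134 with shRNA2. Rps19, the gene most often mutated in Diamond-Blackfan anaemia, was at 1342 and 1289 CPM with nt-shRNA, 958, 898 and 1041 with shRNA1, and 882, 922 and 893 with shRNA2. In all 3 genes shRNA1 replicate 3 was the highest knockdown library and still lay below both controls. Their log2 fold changes were -0.58, -0.52 and -0.45 with shRNA1 and -0.64, -0.55 and -0.55 with shRNA2, in the order named, with adjusted p of 9.83e-05 or less.

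After Fau and Rps18, Rps3 and Rps24 had the smallest adjusted p with shRNA1. Rps3, which shapes the mRNA entry channel and also acts in DNA repair, was at 2568 and 2434 CPM with nt-shRNA, 1788, 1759 and 1971 with shRNA1, and 1784, 1839 and 1757 with shRNA2. Rps24, a further Diamond-Blackfan anaemia gene, was at 1849 and 1762 CPM with nt-shRNA, 1383, 1272 and 1388 with shRNA1, and 1303, 1288 and 1271 with shRNA2. The knockdown libraries of both genes lay close together and apart from the controls. For Rps3 the log2 fold change was -0.44 with shRNA1 (adjusted p = 4.02e-05) and -0.48 with shRNA2 (adjusted p = 3.68e-06), and for Rps24 it was -0.42 (adjusted p = 4.06e-05) and -0.49 (adjusted p = 1.67e-06).

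Rps6 and Rps27a fell less. Rps6, the substrate of the S6 kinases, was at 1089 and 1041 CPM with nt-shRNA, 850.2, 801 and 895 with shRNA1, and 849, 886 and 846 with shRNA2. Rps27a, which encodes ubiquitin fused to eS31, was at 1319 and 1301 CPM with nt-shRNA, 1069, 1002 and 1042 with shRNA1, and 1093, 1123 and 1073 with shRNA2. Neither gene had a knockdown library within the range of the controls. Rps6 changed by -0.33 ± 0.06 and -0.31 ± 0.06 on the log2 scale (adjusted p = 5.58e-04 and 3.43e-04) with shRNA1 and shRNA2, and Rps27a by -0.34 ± 0.06 and -0.26 ± 0.06 (adjusted p = 2.59e-04 and 0.00105).

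Most of the other genes are given by their place in the subunit, as log2 fold changes with shRNA1 and then shRNA2. At the mRNA entry channel, where incoming mRNA is unwound, Rps2 changed by -0.34 and -0.33 and Rps9 by -0.42 and -0.35. In the decoding center, Rps23 changed by -0.44 and -0.42. Rps16, whose tail reaches the tRNA in the P site, changed by -0.45 and -0.44. All of these were lower with either hairpin in edgeR's test.

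At the exit side, Rps14 changed by -0.35 and -0.32, Rps26, which contacts the mRNA upstream of the start codon, by -0.34 and -0.34, Rps28 by -0.51 and -0.43, and Rps3a1 by -0.46 and -0.37. Rpsa, also known as the laminin receptor precursor, and its neighbor Rps21 changed by -0.46 and -0.44 and by -0.43 and -0.37. Rps20, which is ubiquitylated when ribosomes collide, changed by -0.35 and -0.44, and Rps29, a small zinc-binding protein of the head, by -0.48 and -0.36. Rps7, one of the proteins that bind Mdm2, changed by -0.40 and -0.31. Rps13, Rps15a and Rps4x, which lie in the body, changed by -0.43 and -0.30, by -0.33 and -0.31 and by -0.28 and -0.26. These 12 genes were lower with either hairpin, with Rps4x the least changed of them.

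The 2 smallest decreases with shRNA2 depended on the processing and on single libraries. Rps12 changed by -0.40 with shRNA1 (adjusted p = 5.36e-04) and by -0.23 with shRNA2 (adjusted p = 0.0159). Rps25, which is needed for internal initiation on some viral mRNAs, changed by -0.31 (adjusted p = 8.88e-04) and -0.19 (adjusted p = 0.0155). The calls with shRNA2 were lost for both genes without shRNA2 replicate 1 (edgeR adjusted p = 0.0817 and 0.0723) and without shRNA2 replicate 3 (0.0624 and 0.0544). They were also lost with library size alone (0.101 and 0.156) and without nt-shRNA replicate 1. The call of Rps25 was also lost with gene length offsets (0.0528). Over all alternatives the log2 fold change ran from -0.30 to -0.14 for Rps12 and from -0.24 to -0.10 for Rps25. Of the exon bases of Rps25, 24.8% overlap Trappc4 and Ccdc84 on the opposite strand, and the counting used no strand.

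**Figure D3:**
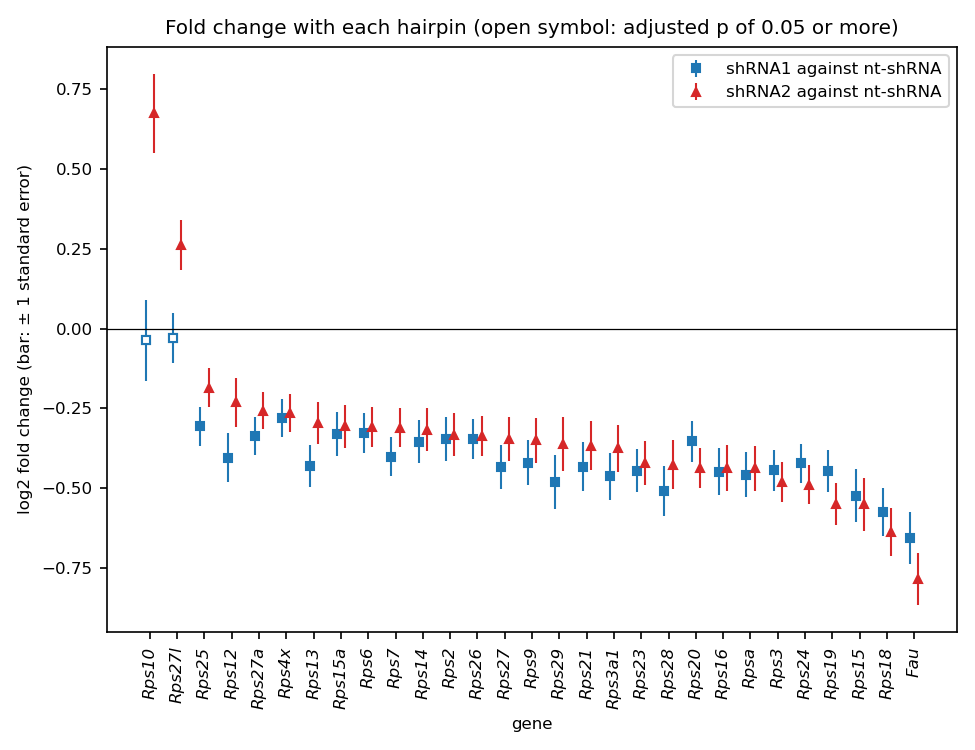
Log2 fold change against nt-shRNA with shRNA1 (squares) and shRNA2 (triangles) for each gene, with bars of 1 standard error. Filled symbols have an adjusted p under 0.05 and open symbols do not; Fau has the lowest values, -0.66 and -0.78, and Rps10 and Rps27l the open symbols.

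Of the paralogs Rps27 and Rps27l, the former was lower with both hairpins, and the latter was not called with shRNA1 and was higher with shRNA2. Both encode forms of eS27, a zinc-finger protein of the platform. Rps27 was at 817 and 857 CPM with nt-shRNA, 641, 574 and 645 with shRNA1, and 639, 711 and 626 with shRNA2, so that every knockdown library lay below both controls. Rps27l was at 239 and 223 CPM with nt-shRNA, 248, 219.8 and 212 with shRNA1, and 281, 299 and 252 with shRNA2. Its shRNA1 libraries spanned the controls, while its shRNA2 libraries lay above both.

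Rps27 changed by -0.43 ± 0.07 with shRNA1 (edgeR adjusted p = 1.1e-04) and by -0.35 ± 0.07 with shRNA2 (adjusted p = 3.12e-04). Rps27l changed by -0.03 ± 0.08 with shRNA1 (adjusted p = 0.805, 95% interval from -0.19 to 0.13) and by 0.26 ± 0.08 with shRNA2 (adjusted p = 0.0075, 95% interval from 0.10 to 0.42). The call of Rps27l with shRNA2 was lost without nt-shRNA replicate 2 (0.21, adjusted p = 0.10), and with offsets for the GC content of transcripts its value was 0.07 (adjusted p = 0.418). Per exon length, Rps27l stood at 0.354 ± 0.0296 of Rps27 with nt-shRNA (SD, n = 2), at 0.468 ± 0.0426 with shRNA1 and at 0.537 ± 0.0243 with shRNA2 (SD, n = 3 each). Exact 2-sided permutation tests of this ratio, with the smaller tail doubled, gave p = 0.2 for either hairpin against nt-shRNA and p = 0.1 between the hairpins. With that doubling these are the smallest values that 10 and 20 arrangements allow. After adjustment over the 3 permutation tests, p was 0.2.

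Rps10, a protein of the head that is ubiquitylated when ribosomes stall, was counted on a part of its exons only, as described above. It stood at 18.9 and 14.0 CPM with nt-shRNA, 16.2, 16.4 and 15.4 with shRNA1, and 26.8, 29.4 and 22.3 with shRNA2. The shRNA1 libraries lay between the controls and the shRNA2 libraries above both. Its log2 fold change was -0.04 with shRNA1 (adjusted p = 0.854, 95% interval from -0.30 to 0.23) and 0.67 with shRNA2 (adjusted p = 1.43e-04, 95% interval from 0.41 to 0.93).

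**Figure D4:**
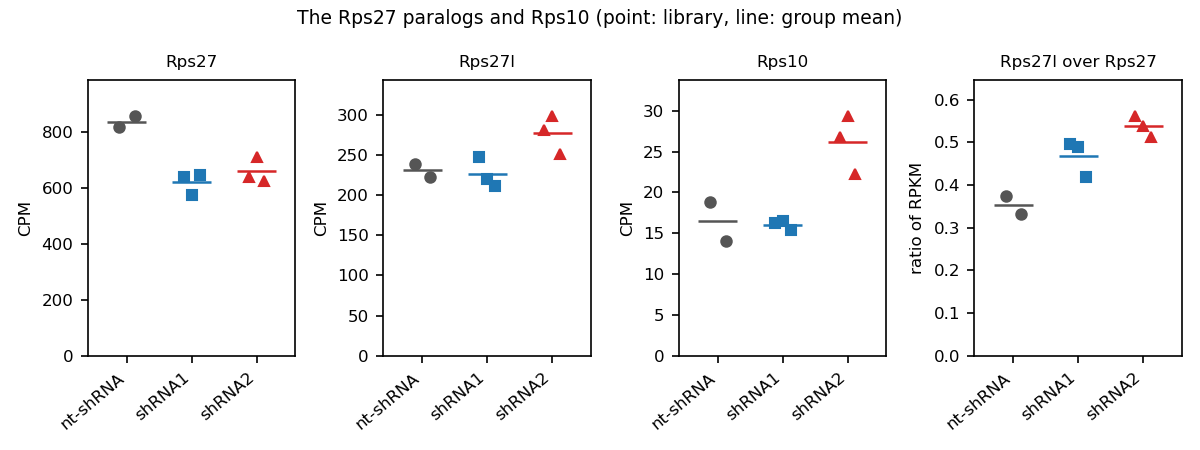
Level in CPM of Rps27, Rps27l and Rps10, and the ratio of Rps27l to Rps27 in RPKM, with 1 point per library and a line at each group mean, on axes from 0. The mean ratio is 0.354 with nt-shRNA, 0.468 with shRNA1 and 0.537 with shRNA2, and no library of one group overlaps another group.

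To ask whether the hairpins differed from each other, shRNA2 was tested directly against shRNA1. The nt-shRNA libraries form no side of this contrast but enter the shared scaling, filter and estimate of the spread, and with the 2 groups fitted alone 2 genes were called as well. Of the 29 genes, 2 were higher and 0 were lower with shRNA2, where 16.9% of all tested genes were higher and 18.7% were lower. The 2 genes were Rps10, on its counted part, with a log2 difference of 0.71 (adjusted p = 1.05e-04, 95% interval from 0.48 to 0.94), and Rps27l, with 0.29 (adjusted p = 0.00302, 95% interval from 0.15 to 0.43). The other 27 genes differed by between -0.13 and 0.17 on the log2 scale, with adjusted p from 0.0561 to 0.932. The libraries of the hairpins did not overlap for 5 of the 29 genes (Rps10, Rps20, Rps25, Rps27a and Rps27l), where 47.8% of all tested genes had no overlap.

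One library had weight in that comparison. Within the shRNA1 group, replicate 3 was the highest library for 24 of the 29 genes, with 3.30% of its counts on them against 3.02% and 2.96% in replicates 1 and 2. It was also the deepest hairpin library, at 27501491 counts against 21711638 and 19569525 in replicates 1 and 2. Without shRNA1 replicate 3, 7 genes were higher with shRNA2, the added ones being Rps3a1 (0.17), Rps12 (0.25), Rps13 (0.19), Rps28 (0.18) and Rps29 (0.22). In that fit 5094 of all tested genes were called in either direction. Among the shRNA2 libraries, replicate 2 was the highest for 28 genes. Of the 2 nt-shRNA libraries, replicate 1 was the higher for 27 genes. With each hairpin library left out in turn, 27 genes were called against nt-shRNA with shRNA1 and 27 to 29 with shRNA2. Of all tested genes, 3697 to 5903 and 8669 to 10017 were called in these fits.

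The genes were also described by features that the list did not use. The 8 genes that host a total of 14 snoRNA genes (Rpsa, Rps2, Rps3, Rps3a1, Rps12, Rps13, Rps16 and Rps20) had median log2 fold changes of -0.44 with shRNA1 and -0.41 with shRNA2, and the 21 other genes -0.42 and -0.35. The 16 genes with the pyrimidine run anywhere in the window around an annotated start, such as Fau and Rps18 in the sequences shown above, had medians of -0.42 and -0.34. This set includes Rps27l, whose run ends before the first transcribed base, and Rps10, which was counted on a part of its exons. It also includes genes whose runs begin inside the transcript, counting its first base as 1. These are Rps23 and Rps26 (base 4), Rps2 (base 5), Rps19 (base 7), Rps12 (base 9) and Rps13 (base 13). The 9 genes whose windows lacked it, such as Rps3, had medians of -0.45 and -0.43. Genes that share exon bases with another gene (11) and those that share none (18) had medians of -0.40 and -0.43 with shRNA1 and of -0.33 and -0.36 with shRNA2. The 29 genes lie on 14 chromosomes.

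Ribosomal protein genes have many processed pseudogenes, and fragments that align to several places were not counted. By their symbols, 102 genes of the annotation are named as pseudogenes of 21 of the 29 genes, of which Rps12-ps3 is listed as protein-coding. All 111 genes with such names after Rps genes together took 297 and 281 CPM with nt-shRNA, 247, 241 and 241 with shRNA1, and 264, 269 and 253 with shRNA2, which was under 1% of the summed level of the 29 genes in every library. Every knockdown library lay below both controls in this sum.

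Most transcripts of large subunit proteins were lower as well. Of 48 genes, 43 were lower and 0 were higher with shRNA1, and 37 were lower and 3 were higher with shRNA2, with median log2 fold changes of -0.41 and -0.34. Rpl39 changed by -0.55 and -0.68, and Rpl36 by -0.70 and -0.87. A list of 16 other TOP transcripts included the noncoding Gas5 and Snhg1. Of the 16, 11 were lower and 0 were higher with shRNA1, and 6 were lower and 3 were higher with shRNA2. Gas5 was among those lower with shRNA1 and Snhg1 among those higher with shRNA2. The medians of this list were -0.23 and -0.08. With library size alone these medians were -0.11 and 0.01, with 6 and 4 genes lower. The medians of all tested genes were then 0.11 and 0.09. Rack1, which encodes a scaffold protein bound to the small subunit, changed by -0.50 and -0.65, and Eef2, the translocation factor, by -0.45 and -0.60.

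Genes that act on the small subunit without being part of it were called in both directions. Of 23 tested factors for its assembly and quality control, 4 were higher and 1 was lower with shRNA1, and 11 were higher and 1 was lower with shRNA2, with medians of -0.01 and 0.18. Pdcd2 had 0 counts and was not tested. Rrp12, an export and processing factor of the precursor subunit, changed by 0.26 and 0.73, and Pno1, which binds near the immature end of its rRNA, by 0.45 and 0.71. With shRNA2 compared directly with shRNA1, 12 of the 23 were higher and 1 was lower, Rrp12 by 0.47 (adjusted p = 2.64e-05) and Pno1 by 0.26 (adjusted p = 0.0132). The sign of the assembly median with shRNA1 depended on the scaling. With library size alone it was 0.10, where the median of all tested genes was 0.11.

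A list of 28 initiation factors held those that bind the small subunit and those of the eIF4 group, which act on the mRNA. Of the 28 factors, 3 were higher and 6 were lower with shRNA1, and 7 were higher and 5 were lower with shRNA2. Their median was -0.07 with shRNA1 and 0.03 with shRNA2. With library size alone the median with shRNA1 was 0.04, where that of all tested genes was 0.11. Eif5, the GTPase-activating protein of the initiation complex, changed by 0.36 and 0.76, and Denr, which acts in reinitiation and recycling, by 0.13 (adjusted p = 0.135) and 0.45. Of 30 proteins of the mitochondrial small subunit, 1 was higher and 4 were lower with shRNA1, and 7 were higher and 7 were lower with shRNA2, with medians of -0.12 and 0.03. With library size alone the former was -0.00, again against 0.11 over all tested genes, with 4 higher and 2 lower. Mrps24 changed by -0.52 and -0.87 and Mrps16 by -0.29 and -0.55. The counts of each list are to be read against the shares of all tested genes given above, and no list was tested as a set.

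**Figure D5:**
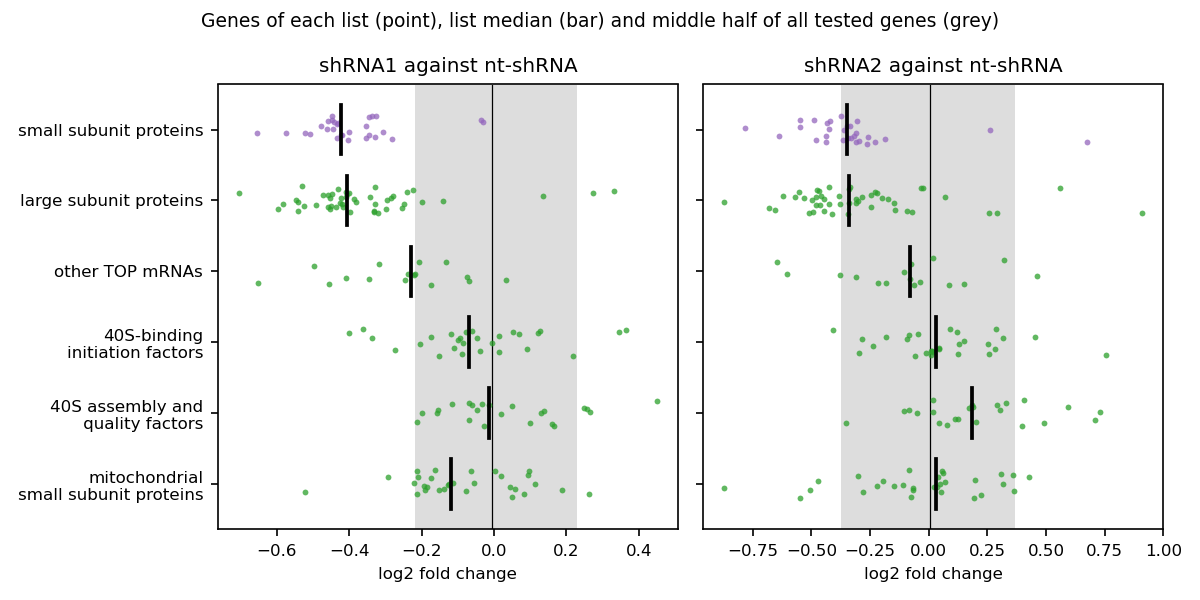
Log2 fold change of the genes of 6 lists (points) with shRNA1 and shRNA2 against nt-shRNA, with the list medians (bars) and the interquartile range of all tested genes (grey band). The medians of the small subunit proteins (-0.42 and -0.35) and the large subunit proteins (-0.41 and -0.34) lie to the left of 0, and those of the assembly factors are at -0.01 and 0.18.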

How the data were processed

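RNA was poly(A)-selected, prepared with NEBNext Ultra II and sequenced as paired-end reads. The authors aligned reads with STAR to GRCm38 (mm10) and deposited raw counts of fragments per gene from featureCounts 1.6.2 on GENCODE M24 exons, without strand and without fragments that aligned to several places or touched several genes. Symbols were matched by identifier to GENCODE M21 for 55144 of 55385 genes, which also gave overlaps and coding bases. Library columns carried the sample titles, and 0 were left unused.

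Counts of all 8 libraries were tested with edgeR 4.0.16 (R 4.3.3): filterByExpr (minimum count 10), TMM, a coefficient per group, glmQLFit and glmQLFTest, and Benjamini-Hochberg adjustment over 17445 genes, with calls at 0.05. The biological coefficient of variation was 0.0638. RPKM used the deposited exon length. Standard errors came from the F statistic. The code was tested on simulated data first. Libraries of 1 group differed beyond sampling noise, with chi-square per gene from 2.88 to 10.8. The value of 10.8 was that of the 2 nt-shRNA libraries, and pairs with the same hairpin reached 7.49. Depth was 19569525 to 29871048 counts.

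The genes and lists were chosen with earlier results of these data known. Values per library are given for the 4 genes with the smallest adjusted p in each direction and comparison, for Rps27, Rps27l, Rps27a, Fau and Rps6, and for the highest and lowest RPKM in nt-shRNA. From each other list, the 2 genes with the smallest adjusted p with shRNA2 are named, and Pou5f1 is named as the stem cell marker called lower. The genes named by place in the subunit are the remaining ones except Rps12 and Rps25, which are described apart.

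Alternatives were DESeq2 1.42.0, its size factors, scaling by library size alone, omitting the filter or raising it to 10 counts in each library, fitting 2 groups at a time, a block for the replicate number, gene length offsets, leaving out each library and, added after seeing the data, GC content offsets, available for 99.9% of tested genes. Start sequences were credited to RefSeq, GRCm38.p6, and were compared with GENCODE M21 transcripts. Figures were drawn with matplotlib 3.10.9.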

Additional observations from a re-analysis of the deposited data

Results flagged for a closer look

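Rps10 and Rps27l were the 2 of the 29 genes whose change differed between the hairpins in the direct test. Rps10 was higher with shRNA2 than with shRNA1 by 0.71 on the log2 scale (edgeR adjusted p = 1.05e-04) and Rps27l by 0.29 (adjusted p = 0.00302), with every shRNA2 library above every shRNA1 library for both genes. Over all alternatives the difference ran from 0.62 to 0.81 for Rps10 and from 0.23 to 0.36 for Rps27l, with adjusted p of 0.0199 or less. Rps10 was counted on the exon bases it does not share with RPS10-NUDT3, which leaves out most of its coding sequence.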

How the results depend on the processing

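Against nt-shRNA, all 27 decreases with shRNA1 kept their direction and call under every alternative run, 551 values over the 29 genes staying on their side of the threshold. With shRNA2, 538 values did and 13 lost the call (Rps12, Rps25 and Rps27l). Between the hairpins 540 did and 11 gained a call. None changed direction among called values. The median of the 29 genes with shRNA1 moved from -0.42 to -0.31 with library size alone, which moved the median of all genes to 0.11. Without a filter on low counts, 4 genes differed between the hairpins (3 higher and 1 lower with shRNA2), Rps12 and Fau being added, and the cause was not tested. DESeq2 called 27, 29 and 3 genes in the 3 comparisons, where it called 4570, 8737 and 5351 of all genes. Length or GC content offsets gave 27, 28 and 2 to 3 calls.

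With each hairpin library left out in turn, 27 genes were called with shRNA1, 27 to 29 with shRNA2 and 2 to 7 between the hairpins. The 7 were called without shRNA1 replicate 3. Of all tested genes, 3697 to 5903, 8669 to 10017 and 4306 to 6437 were called in these fits. With each library left out in turn, the medians ran from -0.47 to -0.38, from -0.41 to -0.32 and from -0.01 to 0.08. Where 1 nt-shRNA library remained, it was assumed to vary like the other groups. Same-numbered libraries did not deviate together (correlations from -0.026 to 0.074), so the numbers were not taken as pairs. With the replicate number as a block, 27, 29 and 2 genes were called, with medians of -0.43, -0.36 and 0.02. Of all tested genes, 6018, 10034 and 6518 were called with the block.

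Rps10, with the fewest counts, 333 or more in each library, had the widest standard errors.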
